A study of Bos taurus with 23 samples.

Results

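SEL1L (ENSBTAG00000008083) and SMPD4 (ENSBTAG00000002130) were followed in endometrial RNA of 23 lactating Holstein cows, as 2 of the 24616 genes in the count files. Both belong to the list of 50 genes that the study selected, partly on these cows, and both were given there as more expressed in cows that became pregnant. They were thus selected on their difference in expression by pregnancy status, and this difference is given here without a test. Both genes passed the filter on low counts that kept 14852 genes for testing. Neither gene is overlapped by another gene in the RefSeq gene table of the ARS-UCD2.0 assembly, where SMPD4 lies between MZT2B and CCDC74B. The reads were counted on another assembly, UMD3.1, where overlap was not checked.

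SEL1L is the adaptor of the HRD1 ubiquitin ligase in the membrane of the endoplasmic reticulum. This complex recognizes misfolded proteins of the secretory pathway and passes them to the cytosol for breakdown by the proteasome, a route called ER-associated degradation. SMPD4 is a neutral sphingomyelinase of the endoplasmic reticulum and nuclear envelope, and it releases ceramide from sphingomyelin. The endometrium in early dioestrus is a secretory tissue under rising progesterone, and the folding of secreted proteins takes place in the same organelle.

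Each cow gave 1 biopsy in dioestrus (day 6-8) and received 1 in-vitro produced embryo in the next cycle, so the RNA came from a uterus without that embryo. After slaughter on day 26-47, a pregnancy (R) was found in 12 cows and none (nonR) in the remaining 11. The study's own R and nonR classes each hold fewer Holstein cows, and it does not say which of the present cows these were. The pregnant cows were 7 of parity 1, 2 of parity 2 and 3 of parity 3, at 128 to 274 days from the last calving. The non-pregnant cows were 5 of parity 1, 3 of parity 2 and 3 of parity 3, at 130 to 261 days. The biopsies were whole tissue, so fewer cells of a type and less RNA per cell cannot be told apart. Since the files hold Ensembl identifiers without symbols, the labelled tissue was not checked against cell type markers.

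Libraries held between 6920879 and 27357249 counts in genes. On the first principal component 4 libraries stood apart, non-pregnant 4 and 6 with pregnant 22 and 23, at 49.7 to 97.8, while the other 19 reached 9.75. In pregnant replicates 20 and 21 the share of reads outside genes was 75.5% and 76.7%, and it was 59.6% or less elsewhere. Both also had fewer counts in genes than any other library, 9171434 and 6920879. Several results are also given without some or all of these 6 libraries.

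SEL1L was at similar levels in all non-pregnant cows and varied more among the pregnant cows. Levels are CPM, that is, counts relative to the TMM-scaled size of each library, and SEL1L received 450 to 2288 counts per library. In the non-pregnant cows it had a lowest value of 60.3 CPM, a median of 69.5 CPM and a highest value of 71.6 CPM. In the pregnant cows the lowest value was 51.3 CPM, the median 70.5 CPM and the highest 95.4 CPM. Both medians were thus nearly equal, while 5 of 12 pregnant cows lay above every non-pregnant cow and 1 lay below. The mean of the pregnant cows was 73.6 ± 11.7 CPM (SD, n = 12), and that of the non-pregnant cows was 67.6 ± 3.77 CPM (SD, n = 11). The fitted log2 fold change, pregnant minus non-pregnant, was 0.12 (standard error 0.081), and the median over all genes was 0.034.

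The extremes of SEL1L came from pregnant cows whose libraries stood apart. Pregnant replicates 23 and 22, apart on the first component, had the highest values of the series, 95.4 and 84.7 CPM. The non-pregnant replicates 4 and 6 that shared this position had 69.5 and 69.7 CPM, inside the range of their group. The lowest value, 51.3 CPM, was that of pregnant replicate 20, where most reads fell outside genes, and replicate 21 had 64.9 CPM. Correlations of SEL1L with the share of reads outside genes and with the counts in genes are given below. The part of the position on the first component in the SEL1L values was not tested. With the share of reads outside genes as a covariate, the log2 fold change by pregnancy was 0.17 (standard error 0.085). The log2 fold change was 0.053 without the 4 libraries apart, 0.18 without replicates 20 and 21, and 0.11 without all 6. Leaving out pregnant replicate 23 alone gave 0.069.

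SMPD4 was higher on average in the pregnant cows, and the groups overlapped less than for SEL1L. It received 108 to 404 counts per library. Non-pregnant cows had a lowest value of 9.31 CPM, a median of 11.8 CPM and a highest value of 12.7 CPM. Pregnant cows had a lowest value of 11.2 CPM, a median of 14.1 CPM and a highest value of 16.1 CPM. Of the pregnant cows, 8 of 12 lay above every non-pregnant cow and none lay below the non-pregnant range. The 4 pregnant cows inside that range were replicates 11, 17, 18 and 23, with 11.4, 11.4, 11.2 and 12.5 CPM. The log2 fold change was 0.24 (standard error 0.083).

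The SMPD4 difference depended less on single libraries. The libraries apart on the first component had 11.9 and 11.9 CPM (non-pregnant replicates 4 and 6) and 13.9 and 12.5 CPM (pregnant replicates 22 and 23), inside the range of the other cows. Pregnant replicates 20 and 21, with most reads outside genes, had 15.5 and 14.4 CPM, among the higher values. Without these 2 the log2 fold change was 0.21, without the 4 libraries apart 0.24 and without all 6 it was 0.21. It ranged from 0.20 to 0.26 as each cow was left out in turn.

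Because the study picked both genes for this difference, these values describe the choice and are no support for it. Across all genes, edgeR's quasi-likelihood test called 0 of 14852 (0%) between pregnant and non-pregnant cows, 1556 (10.5%) had an unadjusted p under 0.05, and DESeq2's Wald test called 10. At least 8 of 12 pregnant cows lay above the highest non-pregnant cow for 0.249% of all genes, and at least 5 of 12 for 5.9%.

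**Figure D1:**
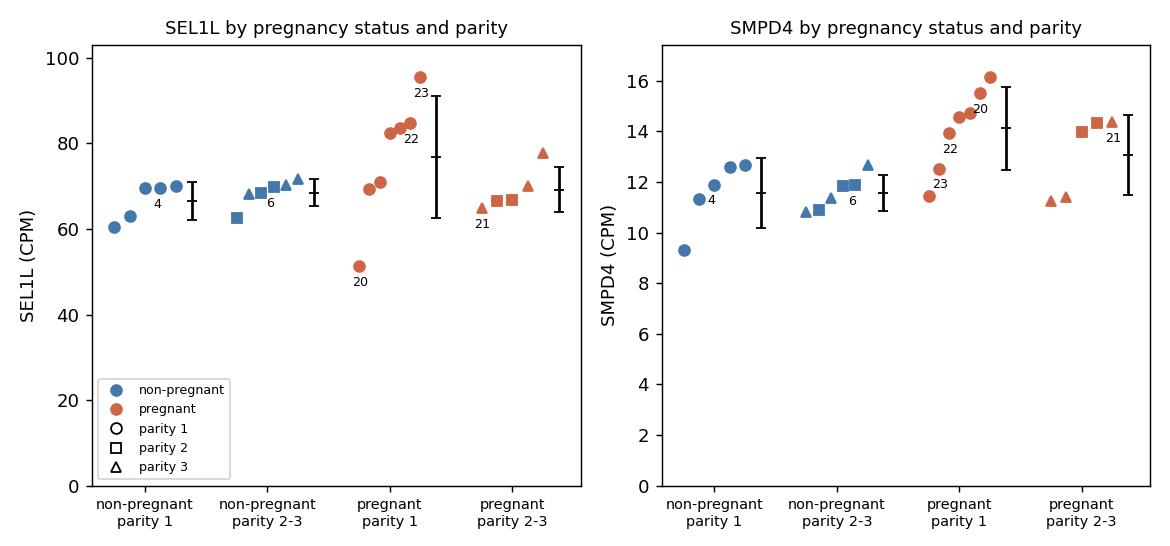
CPM of SEL1L (left) and SMPD4 (right) in each of 23 cows (y axis, from 0), by pregnancy status and parity class (x axis), with a bar at each class for its mean ± SD and numbers for the 6 libraries that stood apart. SEL1L lies between 60.3 and 71.6 CPM in non-pregnant cows and spreads from 51.3 to 95.4 CPM in pregnant cows, and 8 of 12 pregnant cows exceed the highest non-pregnant SMPD4 value.

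Both genes varied little between cows in comparison with most genes. The biological coefficient of variation of edgeR leaves out counting noise, and the value of each gene is drawn towards those of other genes. It was 16.8% for SEL1L and 16.7% for SMPD4, against a median of 32.4% over all genes. Lower values were found for 2.84% and 2.73% of the genes. Both exceed the coefficients observed in non-pregnant and pregnant cows, 5.57% and 15.9% for SEL1L, and 8.65% and 12.0% for SMPD4. They thus rank the genes and are not their measured spread. The highest SEL1L value was 1.86 times the lowest and the highest SMPD4 value 1.73 times the lowest.

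The spread of SEL1L in the non-pregnant cows was among the smallest of all genes. On the log2 CPM scale, with counting noise included, its SD was 0.082 in non-pregnant cows, and 0.121% of the genes had a lower one. This rank was not taken among genes of similar counts. The SD was 0.23 in pregnant cows, where 9.79% of the genes had a lower one. The SD in pregnant cows was thus 2.84 times that in non-pregnant cows, a ratio higher than that of 97.7% of the genes, whose median was 1.32. For SMPD4 the SD was 0.13 in non-pregnant and 0.18 in pregnant cows, a ratio of 1.37 that was higher than that of 54.3% of the genes. Both genes were closer to each other without the 6 libraries that stood apart, where the median ratio over all genes was 1.05. The ratio was then 1.49 for SEL1L, higher than that of 79.9% of the genes, and 1.41 for SMPD4, higher than that of 75.8%.

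Counting noise took a larger part in SMPD4 than in SEL1L. In the non-pregnant cows the SMPD4 counts alone would give a coefficient of variation of 6.61%, and 8.65% was observed. For SEL1L these values were 2.72% and 5.57%. In the pregnant cows the observed coefficients, 12.0% for SMPD4 and 15.9% for SEL1L, lay further above those of counting noise, 7.13% and 3.15%.

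The differences by parity were smaller than the spread between cows for both genes and did not pass the test. SEL1L was at 72.5 ± 12.1 CPM (SD, n = 12) in cows of parity 1, at 66.8 ± 2.74 CPM (SD, n = 5) in parity 2 and at 70.5 ± 4.28 CPM (SD, n = 6) in parity 3. The wider spread at parity 1 came with both the lowest and the 4 highest values of the series, all from pregnant cows. SMPD4 was at 13.0 ± 1.98 CPM in parity 1, 12.6 ± 1.48 CPM in parity 2 and 12.0 ± 1.33 CPM in parity 3. These classes overlapped for both genes.
The log2 difference, parity 2 or more minus parity 1 with pregnancy status in the model, was -0.057 for SEL1L (standard error 0.083, 95% confidence interval -0.23 to 0.11, adjusted p = 0.981, edgeR's quasi-likelihood test). For SMPD4 it was -0.057 (standard error 0.085, 95% confidence interval -0.23 to 0.12, adjusted p = 0.981, same test). The intervals leave room for differences of this size in either direction. Of the genes tested, edgeR called 0 (0%), 520 (3.5%) had an unadjusted p under 0.05, and DESeq2's Wald test called 0. The SEL1L difference was -0.0010 without the 4 libraries apart, -0.017 without pregnant replicate 23 alone and -0.088 without pregnant replicate 20 alone. The SMPD4 difference lay between -0.027 and -0.037 when pregnant replicate 8, 11, 18 or 20 was left out.

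The SEL1L values of parity 1 cows, in which the extremes fell, were as follows. Pregnant cows of parity 1 had a lowest value of 51.3 CPM, a median of 82.4 CPM and a highest value of 95.4 CPM (n = 7). The 5 non-pregnant cows of parity 1 had 60.3, 63.1, 69.5, 69.5 and 70.1 CPM. Among the pregnant cows, replicates 5, 7, 22 and 23 lay at 82.4 CPM or more, replicates 8 and 17 at 69.2 and 71.0 CPM, and replicate 20 lowest. At parity 2 or more, the mean of SEL1L was 69.2 ± 5.18 CPM (SD, n = 5) for the pregnant cows. For the non-pregnant cows of that class it was 68.5 ± 3.19 CPM (SD, n = 6).
For SMPD4 the pregnant cows of parity 1 were at 14.1 ± 1.65 CPM (n = 7) and the non-pregnant ones at 11.6 ± 1.37 CPM (n = 5). At parity 2 or more these values were 13.1 ± 1.59 CPM (n = 5) and 11.6 ± 0.707 CPM (n = 6). The pregnant cows of parity 2 had 14.0 and 14.3 CPM, and those of parity 3 had 11.2, 11.4 and 14.4 CPM. Only replicate 21, one of the libraries with most reads outside genes, was above 14 CPM at parity 3.

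The fitted log2 difference by pregnancy was 0.21 (standard error 0.11) at parity 1 and 0.015 (standard error 0.12) at parity 2 or more for SEL1L. For SMPD4 it was 0.29 (standard error 0.12) and 0.17 (standard error 0.12). The difference between the parity classes was itself tested, as the interaction of pregnancy with parity. It was -0.19 for SEL1L (standard error 0.16, 95% confidence interval -0.53 to 0.15, adjusted p = 0.988, edgeR's quasi-likelihood test). For SMPD4 it was -0.11 (standard error 0.17, 95% confidence interval -0.47 to 0.24, adjusted p = 0.988, same test). Neither passed, and the intervals are wide. The SEL1L interaction was -0.094 without the 4 libraries apart and -0.245 without pregnant replicates 20 and 21. Without pregnant replicate 20 alone it was -0.273 (unadjusted p = 0.0398, adjusted p = 0.942, edgeR's quasi-likelihood test). The SMPD4 interaction was -0.045 without non-pregnant replicate 13, -0.062 without pregnant replicate 18 and -0.070 without pregnant replicate 11. Of all genes, edgeR called 0 (0%) for this interaction, 443 (2.98%) had an unadjusted p under 0.05, and DESeq2's Wald test called 0.

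**Figure D2:**
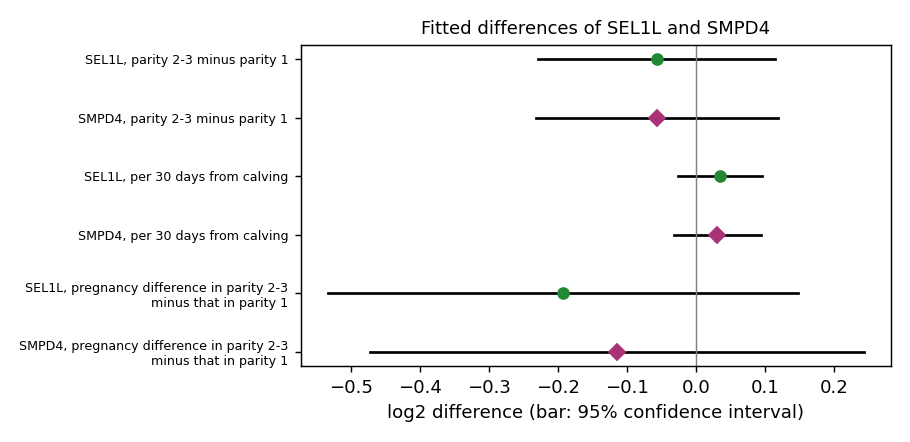
Fitted log2 differences (x axis) of SEL1L and SMPD4 for parity, days from calving and the interaction of pregnancy with parity (y axis), each with a bar for its 95% confidence interval, from 23 cows. Every interval crosses 0, and the widest is that of the SMPD4 interaction, from -0.47 to 0.24.

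The days from the last calving to embryo transfer showed no relation to either gene that passed a test. The slope per 30 days, with pregnancy status and parity class in the model, was 0.034 on the log2 scale for SEL1L (standard error 0.029, 95% confidence interval -0.027 to 0.095, adjusted p = 0.965, edgeR's quasi-likelihood test). For SMPD4 it was 0.030 (standard error 0.030, 95% confidence interval -0.033 to 0.093, adjusted p = 0.978, same test). The SEL1L slope was 0.020 without pregnant replicate 20 and 0.017 without pregnant replicates 20 and 21. The SMPD4 slope lay between 0.015 and 0.020 when non-pregnant replicate 13 or pregnant replicate 5, 17 or 18 was left out. Of all genes, edgeR called 0 (0%), 793 (5.34%) had an unadjusted p under 0.05, and DESeq2's Wald test called 1.
The cow with the shortest interval, pregnant replicate 17 at 128 days, had 71.0 CPM of SEL1L and 11.4 CPM of SMPD4. The cow with the longest, pregnant replicate 15 at 274 days, had 66.7 and 14.0 CPM. High SEL1L values occurred at 173 and 174 days as well as at 225 and 261 days.
Across the 23 cows, with the mean of each pregnancy group removed, SEL1L had a Pearson r of 0.227 with days (p = 0.334) and a Spearman rho of 0.217 (p = 0.328) in a two-sided permutation test. SMPD4 had r = 0.222 (p = 0.329) and rho = 0.191 (p = 0.392) in the same permutation test. Without the 2 cows farthest from the median of days, r was 0.364 (permutation p = 0.129) for SEL1L and 0.311 (permutation p = 0.187) for SMPD4. Without pregnant replicates 20 and 21, r was 0.122 (permutation p = 0.632) for SEL1L and 0.312 (permutation p = 0.191) for SMPD4.

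**Figure D3:**
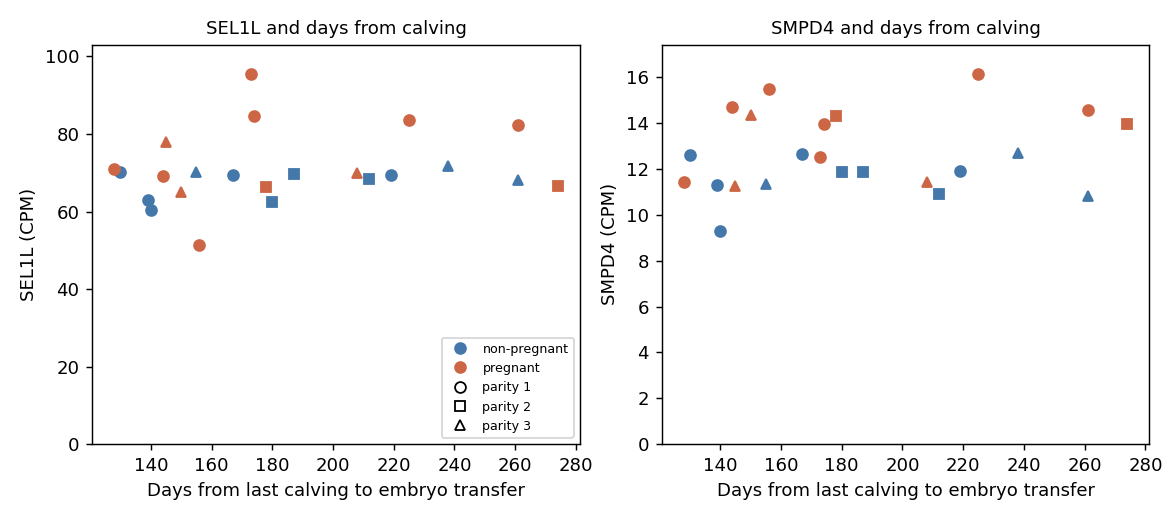
CPM of SEL1L (left) and SMPD4 (right) on the y axis (from 0) against days from last calving to embryo transfer (x axis) in 23 cows, with colours for pregnancy status and symbols for parity. Values of both genes at short and at long intervals overlap within the range of 128 to 274 days, and the SEL1L values of 82.4 CPM or more lie between 173 and 261 days.

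SEL1L and SMPD4 showed no correlation across the 23 cows that passed a test. With the mean of each pregnancy group removed, Pearson's r of their log2 CPM was -0.059 (p = 0.818) and Spearman's rho was 0.031 (p = 0.898) in a two-sided permutation test. Of the 14851 other genes, 53.1% had a lower rho with SEL1L than SMPD4 had. The sign of r rested on pregnant replicates 20 and 23, which lie farthest from the SEL1L median, one with low SEL1L and high SMPD4 and the other with the highest SEL1L and moderate SMPD4. Without these 2, r was 0.305 (permutation p = 0.236).

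Within the groups, the correlation was positive among the non-pregnant cows and negative among the pregnant cows, neither passed after adjustment, and each r moved most with 1 cow. Among 11 non-pregnant cows r was 0.668 (p = 0.0244) and rho 0.691 (p = 0.0220) in a two-sided permutation test. After adjustment over 14 correlations within groups, the permutation p-values were 0.341 and 0.307. This r rested on non-pregnant replicate 13, which was lowest for both genes at 60.3 and 9.31 CPM. Without it r was 0.340 (permutation p = 0.341) and rho 0.588 (permutation p = 0.0797). Among 12 pregnant cows r was -0.233 (permutation p = 0.467) and rho -0.280 (permutation p = 0.379). The size of this r rested on pregnant replicate 20, since r was -0.0065 and rho -0.145 without it. Leaving out pregnant replicate 5 instead gave r -0.403 and rho -0.527. The difference between these correlations was not tested.
The ratio of SEL1L to SMPD4 within a cow, which does not depend on the scaling of the library, was narrow in non-pregnant cows. It ranged from 5.27 to 6.48 (median 5.84) there and from 3.31 to 7.61 (median 5.42) in pregnant cows. Pregnant replicate 20 had the lowest ratio and pregnant replicate 23 the highest, both of them libraries that stood apart.

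**Figure D4:**
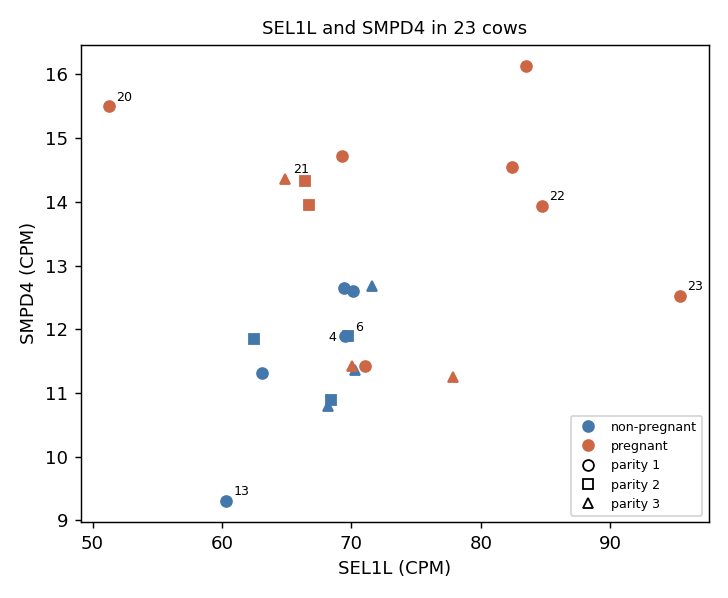
SMPD4 (y axis, CPM) against SEL1L (x axis, CPM) in 23 cows, with colours for pregnancy status, symbols for parity and replicate numbers for non-pregnant replicate 13 and the 6 libraries that stood apart. Non-pregnant cows form a compact group from 60.3 to 71.6 CPM of SEL1L, and pregnant replicates 20 and 23 lie at its 2 sides, at 51.3 and 95.4 CPM.

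Across the 23 cows no relation of either gene to a measure of the libraries passed a test, and the values depended on the libraries that stood apart. With the log2 of the counts in genes, r was 0.358 for SEL1L (permutation p = 0.183) and 0.048 for SMPD4 (permutation p = 0.848), and rho was 0.299 and 0.107 (permutation p = 0.200 and 0.641). Without pregnant replicates 20 and 21 the r with counts in genes turned to -0.135 for SEL1L (permutation p = 0.605) and was 0.392 for SMPD4 (permutation p = 0.0973). Without the 4 libraries apart it was 0.568 for SEL1L, with a permutation p of 0.0396 that was not adjusted, and without all 6 it was 0.254 (permutation p = 0.345). With the share of reads outside genes r was -0.347 for SEL1L (permutation p = 0.196) and 0.099 for SMPD4 (permutation p = 0.697), and rho was -0.031 and -0.016 (permutation p = 0.900 and 0.946). Pregnant replicates 20 and 21 form a cluster of their own on this share. Without them r was 0.347 for SEL1L (permutation p = 0.129), of opposite sign, and -0.229 for SMPD4 (permutation p = 0.324). Without the 4 libraries apart r was -0.531 for SEL1L (permutation p = 0.0618). In all, 7 relations across 23 cows were computed, and the smallest adjusted permutation p was 0.584 for r and 0.914 for rho.

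More genes followed SEL1L across the cows than followed SMPD4. With group means removed, 160 of 14851 genes had a Spearman rho above 0.7 with SEL1L, and 1 had such a rho with SMPD4. The median rho over all genes was 0.0020 and 0.020. The part of the larger counting noise of SMPD4 in this was not tested. The counts of genes above 0.7 were not set beside those of other genes and were not taken without the 4 libraries apart. The genes most like SEL1L were ENSBTAG00000012683 (rho 0.877) and ENSBTAG00000021091 (rho 0.875), and those most like SMPD4 were ENSBTAG00000047731 (rho 0.709) and ENSBTAG00000003923 (rho 0.678). No symbol for them was at hand in the files. They are the highest of many values over the same 23 cows and carry no p. In the 19 other libraries, those not apart on the first component, their rho was 0.851, 0.886, 0.704 and 0.663.

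Among the other 49 genes of the study's list, DIDO1 and BHLHE40 were most like SEL1L, and CCNG2 and PIK3C3 ran most against it. DIDO1, a chromatin protein linked to cell death and mitosis, had rho 0.762 over 23 cows, and BHLHE40, a repressor that acts in the circadian clock, had 0.709. Cyclin G2 (CCNG2), an atypical cyclin of cells leaving the cell cycle, had -0.739, and PIK3C3, the lipid kinase of autophagy and endosomes, had -0.566. In the 19 cows without the libraries apart these values were 0.661, 0.656, -0.784 and -0.646, so each had the same sign there. For SMPD4, RIN3, an exchange factor of Rab5, was among the most alike, with 0.443. The lowest values belonged to the ubiquitin ligase RFWD2 (-0.405) and to FUNDC2 of the mitochondrial outer membrane (-0.403).
Some of these genes stood towards the same end for both and others did not. RIN3 also had a positive rho with SEL1L, 0.424, and FUNDC2 had -0.313 with SEL1L. PIK3C3 had -0.214 with SMPD4. DIDO1 and BHLHE40 had rho 0.031 and 0.078 with SMPD4, and CCNG2 had 0.027, all near 0. The medians over the list genes given as higher in R cows (31 without the gene itself) were 0.031 with SEL1L and 0.031 with SMPD4. Over the 18 genes given as lower in R cows they were -0.178 and -0.147. These medians were not taken without the 4 libraries apart. In the other 19 libraries, most list genes given as higher in R cows had a higher rho with SEL1L than over 23 cows. Most of those given as lower had a lower one. Genes given as higher and genes given as lower thus lay further apart in their rho with SEL1L in those 19 libraries. The printed medians with SEL1L describe the 23 cows alone. The study chose the list by pregnancy status on part of these cows, and these values are a description.

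**Figure D5:**
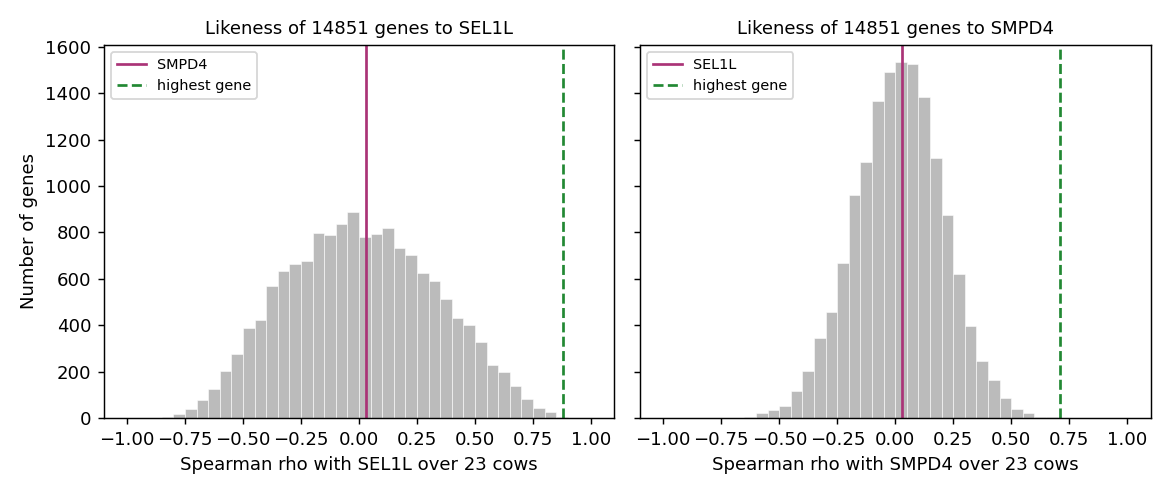
Number of genes (y axis) by their Spearman rho with SEL1L (left) or SMPD4 (right) over 23 cows with group means removed (x axis, bins of 0.05), with a solid line for the other gene of the pair and a dashed line for the highest gene. The SEL1L distribution is wider and reaches 0.877, the SMPD4 distribution reaches 0.709, and the pair itself lies at 0.031.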

How the data were processed

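Endometrial biopsies of 23 Holstein cows were sequenced, 1 TruSeq stranded total RNA library each. Per the submitters' processing notes, STAR, UMD3.1 and HTSeq were used for alignment and counting by the authors. The deposited values are raw counts per Ensembl gene. Tool versions, the annotation and the strandedness of counting were not given in the sources used here. Reads outside genes (39.2 to 76.7%) and ambiguous reads were kept out of library sizes and tests. Libraries of a group differed beyond counting noise in all 121 pairs (chi-square of 30.5 or more for each degree of freedom).

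Cows were grouped by the labelled pregnancy status, and the sample titles gave the replicate numbers. In R 4.3.3, genes were kept by edgeR 4.0.16's default filter, scaled with TMM factors, and tested by the quasi-likelihood method of edgeR at a Benjamini-Hochberg adjusted p of 0.05 over all genes. The model for the pregnancy difference and for the biological coefficient of variation held pregnancy status alone, without parity. The other models held pregnancy status and 2 parity classes (1, or 2 and above), then also days from calving, or the interaction. Standard errors were taken from the log2 change and its F statistic. Log2 CPM used a prior count of 2, and permutation tests 100000 resamples within pregnancy groups. DESeq2 1.42.0 gave another test, size factors and the vst. The code was tested on simulated data. Depth limits SMPD4 most.

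The genes, lists and tests were chosen with earlier results of these data known. The rule for named genes was SEL1L and SMPD4, the 5 genes most like each (2 are printed), and members of lists of ER-associated degradation, unfolded protein response, chaperone, sphingolipid, nuclear envelope and cell type marker genes. These lists were not analysed here, since 0 of 37063 entries of the gene table used carry an Ensembl identifier. The 2 most and 2 least alike genes of the study's list were added after the files were seen, and 1 of them is not reported here.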

Additional observations from a re-analysis of the deposited data

Results flagged for a closer look

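SEL1L of non-pregnant replicate 19 was flagged because it lay far from the other non-pregnant cows of parity 2 or more. It had 62.5 CPM, and the nearest of the other 5 cows had 68.2 CPM, a gap of 0.630 of the group's range against a critical value of 0.625. It was 1 of 12 groups checked over both genes, and chance flags about 1 in 20 groups. The value lies inside the range of all non-pregnant cows.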

How the results depend on the processing

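The parity difference, the slope on days, the interaction and the pregnancy difference of SEL1L and SMPD4 kept their direction and, where tested, their side of the threshold under every alternative run, namely DESeq2 size factors, no filter, a minimum CPM of 1 in 11 libraries, the Wald test of DESeq2, the share of reads outside genes as a covariate and every set of libraries left out. Parity as a number was run for the parity difference alone, which kept its direction and did not pass the test. The sizes of the differences and slopes that did not pass a test moved by over 1.5 times without some single cows or sets of libraries, as given beside several of them. For days from calving DESeq2's Wald test called 1 gene where edgeR called 0. The correlation of SEL1L with SMPD4 changed its sign. Its r was 0.14 with group means kept, 0.0045 without the 4 libraries apart, 0.23 without pregnant replicates 20 and 21 and 0.37 without all 6, none of which passed a permutation test. Leaving out single cows gave values between -0.17 (non-pregnant replicate 13 left out) and 0.16 (pregnant replicate 20 left out), and r was also positive when pregnant replicate 23 was left out. The SEL1L log2 fold change by pregnancy ranged from 0.069 to 0.15 with each cow left out, and that of SMPD4 was 0.20 without a filter. No paired analysis was possible because no replicate number occurs in both groups. The libraries hold 108 to 404 counts of SMPD4, which limits how small a difference could be seen.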
